A study of Mus musculus with 6 samples.

Results

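Interferons are secreted cytokines that act through paired cell-surface receptor chains, and 8 of their genes were followed here across 2 groups of cultured RENCA cells. The ligand genes were Ifnb1 (interferon-β) and Ifna4 (interferon-α4), both type I interferons. The receptor genes were Ifnar1 and Ifnar2 (type I receptor), Ifngr1 and Ifngr2 (receptor of interferon-γ, the type II interferon), and Ifnlr1 and Il10rb (type III or interferon-λ receptor). They were taken by gene symbol from the 78298 genes of the deposited table, and all 8 were found. The choice names type I and III interferons, but Ifngr1 and Ifngr2 belong to type II and are described as such.

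RENCA is an established mouse renal adenocarcinoma line. The 3 oe-AQP1 samples carried a lentivirus with the mouse Aqp1 coding sequence (a water channel) behind the ubiquitin C promoter. The 3 oe-NC samples carried the corresponding empty vector, so both groups share the lentiviral backbone, its puromycin resistance gene and 14 days of selection in puromycin at 2 μg/mL. All 6 samples are labelled as 1 batch. The submitters call the 3 samples of a group biological replicates. Whether they came from separate transductions, and whether each culture is a pool or 1 clone, is not given in the sources used here, so p-values measure only the spread between these samples.

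Type I interferons are made after a cell senses foreign or misplaced nucleic acid: the sensors act through the kinase TBK1 on the factors IRF3 and IRF7, which switch on the Ifnb1 and Ifna genes. The secreted proteins bind IFNAR1 and IFNAR2 on the same or a neighboring cell, where the kinases JAK1 and TYK2 activate transcription factors of the STAT family. These join IRF9 and raise the interferon-stimulated genes. Interferon-λ reaches the same targets through IFNLR1 and IL10RB, a pair found mainly on epithelial cells, while interferon-γ acts through IFNGR1 and IFNGR2 and the kinases JAK1 and JAK2.

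The libraries held 18385714 to 21920899 expected counts each. Levels are given in counts-per-million (CPM), a gene's counts relative to those of its library after TMM scaling, which corrects for library composition. Aqp1 itself was read at 390, 389 and 381 CPM in oe-AQP1 and at 2.09, 1.37 and 2.11 CPM in oe-NC, so each library matched its label. Counts of oe-NC sample 1 lay further from those of oe-NC samples 2 and 3 (chi-square per gene 9.47 and 11.1) than any other replicate pair did (1.71 to 2.04), and values without this sample are given with each member's fold change and where a list's calls change without it. Of 8 renal tubule markers, Epcam had 0 counts in all 6 samples, and the summed level was 842 to 874 CPM in oe-AQP1 and 1027 to 1141 CPM in oe-NC. Cdh16, Krt8, Krt18 and Lrp2 among them were lower in oe-AQP1 and none was higher. Pax2 was called higher without oe-NC sample 1 (log2FC 0.41). The part of this marker difference in the results was not tested.

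Both ligand genes were close to silent in control cells and were read in every oe-AQP1 sample. Ifnb1 encodes the interferon that most cell types make first after infection. It had 264, 288 and 277 counts in oe-AQP1 samples 1 to 3 and 3, 6 and 5 counts in oe-NC samples 1 to 3. In CPM these were 13.4, 13.1 and 13.5 against 0.153, 0.328 and 0.235. The lowest oe-AQP1 sample was thus far above the highest oe-NC sample, and the oe-AQP1 samples lay close together (13.3 ± 0.191 CPM, SD, n = 3). In oe-NC the mean was 0.239 ± 0.088 CPM (SD, n = 3), a level that rests on 14 counts in all.

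The fold change was taken from limma-voom, a linear model of log2 CPM fitted across all 15522 genes that passed a low-count filter. Its p-values were adjusted over these genes by the Benjamini-Hochberg method (FDR), and a gene was called at an FDR under 0.05. A gene whose log2 fold change (log2FC) was also beyond 1 in either direction was counted as a differentially expressed gene (DEG), the thresholds of the study. Ifnb1 had a log2FC of 5.72 (SE 0.30, 95% CI 5.05 to 6.39, FDR = 2.60e-07 by limma-voom) and stood at rank 6 of all genes by log2FC. It passed the filter through the oe-AQP1 samples alone and its oe-NC level rests on 14 counts, so nothing is read from this rank. The summed counts of 829 and 14 gave a ratio of 56.3, with a counting interval of 33.3 to 103 that covers counting error only. Without oe-NC sample 1 the log2FC was 5.47. In bulk RNA, a larger number of expressing cells and more RNA per cell cannot be told apart, here and in what follows.

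Ifna4, an interferon-α gene that is induced early together with Ifnb1, had 34, 23 and 23 counts in oe-AQP1 and 0 counts in each oe-NC sample. These are 1.72, 1.05 and 1.12 CPM, and 1.29 ± 0.370 CPM on average (SD, n = 3). A count of 0 allows up to 3 counts, or 0.141 to 0.164 CPM in the oe-NC libraries. Against 3 counts in each oe-NC library, Ifna4 was at least 8.49-fold higher in oe-AQP1, a bound that was not tested. The limma-voom fit on the counts themselves gave a log2FC of 5.65 (FDR = 5.73e-06 by limma-voom). Without oe-NC sample 1 the fitted log2FC was 5.66. Reads were counted in all 3 samples of one group and in none of the other, but the depth bounds the size of the difference from below only.

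Both ligand genes were DEGs, beside 5.23% of all genes in either direction and 4.39% higher in oe-AQP1. They passed the low-count filter through the oe-AQP1 samples alone, so nothing is read from this count. The exact two-sided permutation test on the 6 samples gave p = 0.1 for each gene, which is the smallest value that 3 against 3 samples allow.

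Ifnb1 (ENSMUSG00000048806) lies at chr4:88440262-88441011 on the minus strand and Ifna4 (ENSMUSG00000070904) at chr4:88760098-88760658 on the plus strand (GRCm39, GENCODE M39), each with 1 annotated transcript, of 750 and 561 bases. The 250 bases before each start site, taken from RefSeq on GRCm38.p6, are shown because they hold the stretch where both genes carry motifs of the induction pathway. The printed parts lie at chr4:88441032-88441281 (minus strand) and chr4:88759803-88760052 (plus strand) of GRCm39. They were placed by the full 300-base windows, each of which matched exactly once on that chromosome, the only one searched for them. They are written 5′ to 3′ on the strand of the gene and capitals mark motif matches.
Ifnb1: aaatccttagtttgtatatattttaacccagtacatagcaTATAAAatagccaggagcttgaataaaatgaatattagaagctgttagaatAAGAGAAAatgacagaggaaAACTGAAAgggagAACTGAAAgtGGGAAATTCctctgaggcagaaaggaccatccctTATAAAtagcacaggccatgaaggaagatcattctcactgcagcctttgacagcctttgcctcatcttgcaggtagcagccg
Ifna4: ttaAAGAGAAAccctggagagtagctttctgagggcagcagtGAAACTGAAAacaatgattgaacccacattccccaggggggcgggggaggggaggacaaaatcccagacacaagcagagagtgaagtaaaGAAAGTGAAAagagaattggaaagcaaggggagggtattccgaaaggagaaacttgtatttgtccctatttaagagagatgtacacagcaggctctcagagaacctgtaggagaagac
Both strands of the 300-base windows from 250 bases before to 50 bases after the start were searched. The core of interferon regulatory factor sites, AANNGAAA, began at positions -159, -139 and -126 of Ifnb1 and at -247, -206 and -116 of Ifna4, counted from the RefSeq start. The RefSeq starts differ from the starts of the GENCODE genes given above. A κB motif, GGGANNTTC, began at -116 of Ifnb1, and TATAAA at -210 and -82. In Ifna4 the half-site repeat GAAANNGAA began at -208 and -118, overlapping the core matches at -206 and -116. Of 32851 windows in the RefSeq table, 23.9% held the core, 8.56% the half-site repeat, 3.94% the κB motif and 13.6% TATAAA. These are matches of letters, and no binding was measured.

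Other interferon ligands were almost unread. Of 19 further ligand genes listed, 13 had 0 counts in all 6 samples, among them Ifng, Ifnl2 and Ifnl3, the ligands of the type II and type III receptors. None of the 19 passed the low-count filter. Ifna2 had 7, 5 and 6 counts in oe-AQP1 and 0, 0 and 2 in oe-NC. Ifna13 had 0, 0 and 1 counts against 0, 0 and 3, and Ifnk a single count in oe-NC sample 1. Ifna5, Ifna16 and Ifnab had at most 3 counts in any oe-AQP1 sample and 0 in oe-NC. A count of 0 corresponds to at most 0.136 to 0.164 CPM in these libraries.

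The other 13 interferon-α genes together had 11, 5 and 12 counts in oe-AQP1 and 0, 0 and 5 in oe-NC. Ifna4 held 74.1% of the 108 interferon-α counts in oe-AQP1. Interferon-α genes are near-identical copies, so the split of reads among them is uncertain. In oe-AQP1 sample 3 Ifna16 and Ifnab had the fractional counts 1.87 and 2.13.

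The 6 receptor genes were read in every sample of both groups, and their differences were small beside those of the ligands. Ifnar2, Ifngr2 and Ifnlr1 rose by 20.2% to 29.8% in oe-AQP1, Ifngr1 fell by 13.3%, and Ifnar1 and Il10rb did not pass the test. In each of the 3 receptors the partners had different calls, which alone does not show that they differed from each other. The 4 genes called make up 66.7% of the 6, against 32.5% of all genes in either direction (16.0% higher and 16.6% lower). None of the 6 was a DEG, and their median log2FC was 0.09 beside 0.0023 for all genes. With 6 genes chosen with earlier results known, these shares are a description.

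**Figure D1:**
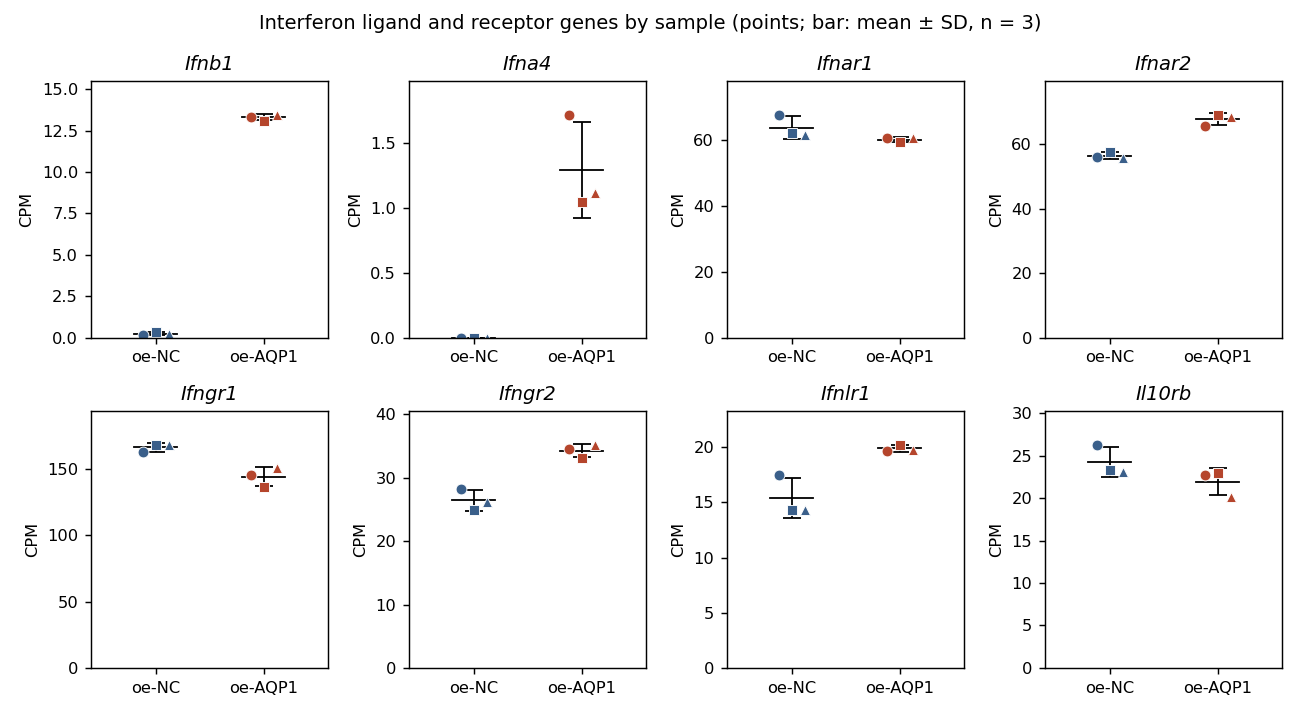
CPM of each gene (vertical axis, from 0) in the 3 oe-NC and 3 oe-AQP1 samples, with circles, squares and triangles for samples 1 to 3 and bars for mean ± SD. Ifnb1 lies between 13.1 and 13.5 CPM in oe-AQP1 and at or below 0.328 CPM in oe-NC, while the receptor genes change by at most 29.8%.

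Ifnar2 encodes the high-affinity chain of the type I receptor. Its counts were 1302, 1524 and 1412.22 in oe-AQP1 and 1104, 1054 and 1189 in oe-NC, or 65.8, 69.3 and 68.7 CPM against 56.2, 57.7 and 55.8 CPM. Every oe-AQP1 sample lay above every oe-NC sample, with means of 67.9 ± 1.84 and 56.6 ± 0.984 CPM (SD, n = 3). The log2FC was 0.27 (SE 0.04, 95% CI 0.17 to 0.36, FDR = 0.00134 by limma-voom), and 0.26 without oe-NC sample 1.

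Ifnar1 encodes the other chain of that receptor, the one that binds TYK2. It was read at 60.6, 59.3 and 60.4 CPM in oe-AQP1 and at 67.7, 62.0 and 61.4 CPM in oe-NC. The oe-NC samples were all higher, but samples 2 and 3 only slightly and sample 1 by more. The log2FC of -0.08 (SE 0.05, 95% CI -0.20 to 0.03, FDR = 0.240 by limma-voom) did not pass the test, and was -0.04 without oe-NC sample 1. The interval runs from 0.873 to 1.02 times the oe-NC level.

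Ifngr1, the ligand-binding chain of the interferon-γ receptor, had the highest level per exon length of the 8 genes. Its counts were 2881, 3006 and 3100 in oe-AQP1 and 3194, 3079 and 3580 in oe-NC. Scaled to CPM the groups separated, at 146, 137 and 151 CPM in oe-AQP1 against 163, 168 and 168 CPM in oe-NC. The log2FC was -0.21 (SE 0.04, 95% CI -0.31 to -0.11, FDR = 0.00561 by limma-voom), and -0.22 without oe-NC sample 1.

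Ifngr2 encodes the second chain, which brings JAK2 to the receptor. It had 682, 728 and 724 counts in oe-AQP1 and 554, 455 and 557 in oe-NC, or 34.5, 33.1 and 35.2 CPM against 28.2, 24.9 and 26.1 CPM. The groups did not overlap, and the log2FC was 0.37 (SE 0.06, 95% CI 0.24 to 0.51, FDR = 0.00125 by limma-voom). Without oe-NC sample 1, the highest of its group, it was 0.42. The chains of the interferon-γ receptor thus changed in opposite directions.

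Ifnlr1, the chain that is specific to interferon-λ, had 389, 445 and 407 counts in oe-AQP1 and 344, 262 and 306 in oe-NC. In CPM these were 19.7, 20.2 and 19.8 against 17.5, 14.3 and 14.4. The oe-AQP1 samples lay close together and above all of oe-NC, whose sample 1 stood nearest to them. The log2FC was 0.38 (SE 0.09, 95% CI 0.19 to 0.57, FDR = 0.00714 by limma-voom) and 0.47 without oe-NC sample 1.

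Il10rb encodes the partner of IFNLR1, which also serves the receptors of interleukin-10 and interleukin-22. It was read at 22.8, 22.9 and 20.1 CPM in oe-AQP1 and at 26.3, 23.3 and 23.1 CPM in oe-NC. The lowest oe-NC sample was just above the highest oe-AQP1 sample. The log2FC of -0.14 (SE 0.08, 95% CI -0.32 to 0.03, FDR = 0.193 by limma-voom) did not pass the test, and was -0.08 without oe-NC sample 1.

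For all 6 receptor genes the CPM ranges of the groups did not overlap, which was also true of 47.3% of all genes tested. The exact two-sided permutation test gave p = 0.1 for each, the smallest value that 3 against 3 samples allow, so that the calls rest on the spread that limma-voom shares across genes. Fractional counts occurred for Ifnar2 and Il10rb in oe-AQP1 sample 3 only. In that sample Gm21970, a gene on the same strand that spans parts of both, had 9.5 counts, and it had 0 counts in the other 5 samples. Other genes overlap a receptor gene on the opposite strand, and whether counting used the strand is not given in the sources used here: Gm36587 at Ifnar2 had 0 counts in all samples, and Gm69994 at Ifnlr1 had 0 to 6 counts.

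To compare genes with each other, CPM was divided by the length of all annotated exons in kilobases. On this scale the control order was Ifngr1 (58.4 ± 1.11 CPM per kb, SD, n = 3), Ifnar2 (15.1 ± 0.263), Ifnar1 (7.85 ± 0.424), Ifngr2 (5.85 ± 0.373), Il10rb (3.95 ± 0.292), Ifnlr1 (3.61 ± 0.430), Ifnb1 (0.318 ± 0.117) and Ifna4 at 0. Il10rb and Ifnlr1 were neighbors whose samples overlapped, and the other neighbors did not overlap. With the longest transcript as length, Ifngr2 and Il10rb overlapped instead (means of 7.02 and 6.30 CPM per kb), and Il10rb and Ifnlr1 did not. Of the genes kept, 96.0% had a lower level per kb than Ifngr1 in oe-NC, and 12.3% had a lower one than Ifnb1.

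In oe-AQP1 the order was Ifngr1 (50.7 ± 2.50 CPM per kb, SD, n = 3), Ifnar2 (18.2 ± 0.492), Ifnb1 (17.7 ± 0.255), Ifngr2 (7.59 ± 0.237), Ifnar1 (7.40 ± 0.089), Ifnlr1 (4.67 ± 0.070), Il10rb (3.57 ± 0.259) and Ifna4 (2.31 ± 0.659). Ifnb1 moved from the 7th to the 3rd place, where its samples overlapped those of Ifnar2, and 84.5% of genes lay below it. Ifngr2 and Ifnar1 overlapped as well. With the longest transcript as length, Ifnb1 kept the 3rd place but did not overlap Ifnar2 (means of 17.7 and 20.6 CPM per kb). Places 4 and 5, and 6 and 7, swapped when the longest transcript was used as the length, since exon models of Ifnar1 and Il10rb are much longer than any of their transcripts.

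**Figure D2:**
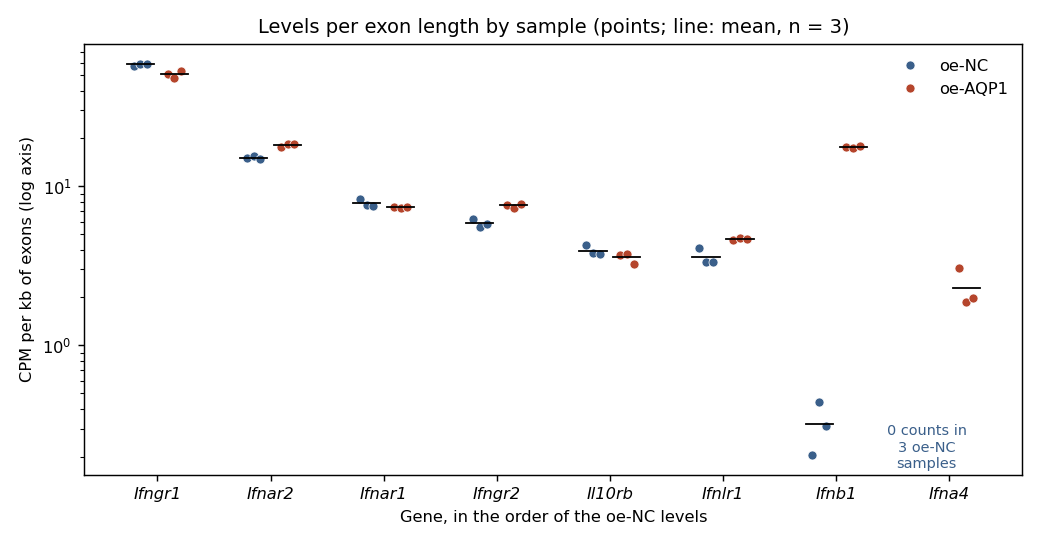
Level per kilobase of annotated exons (logarithmic vertical axis, CPM per kb) of each gene in the order of the oe-NC means, with 1 point per sample and a line at the mean of 3. Ifnb1 rises from 0.318 to 17.7 CPM per kb, next to Ifnar2, and Ifna4 has 0 counts in the 3 oe-NC samples.

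Receptors work as pairs, so the ratio of the partners was formed within each sample from the levels per kb. Ifnar1 to Ifnar2 was 0.424, 0.394 and 0.405 in oe-AQP1 and 0.554, 0.496 and 0.507 in oe-NC. Ifngr1 to Ifngr2 was 6.70, 6.55 and 6.79 in oe-AQP1 and 9.15, 10.7 and 10.2 in oe-NC. Ifnlr1 to Il10rb was 1.24, 1.27 and 1.42 against 0.960, 0.887 and 0.893. In every sample Ifnar2 was above Ifnar1 and Ifngr1 above Ifngr2, whereas Ifnlr1 was above Il10rb in oe-AQP1 only. With the longest transcript as length, Ifnlr1 was below Il10rb in oe-AQP1 as well (4.69 against 5.70 CPM per kb).

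All 3 ratios separated the groups without overlap. Within each pair the CPM of the partners had already separated the groups in opposite directions. The separation of the ratios and their permutation p follow from that and are no further result. On the log2 scale the differences, oe-AQP1 minus oe-NC, were -0.35 for the type I pair, -0.58 for the interferon-γ pair and 0.52 for the interferon-λ pair. The exact two-sided permutation p was 0.1 for each pair, also after adjustment over the 3 pairs, and cannot be lower with 3 against 3 samples. The size of a ratio depends on the exon lengths used, while its log2 difference between groups does not.

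**Figure D3:**
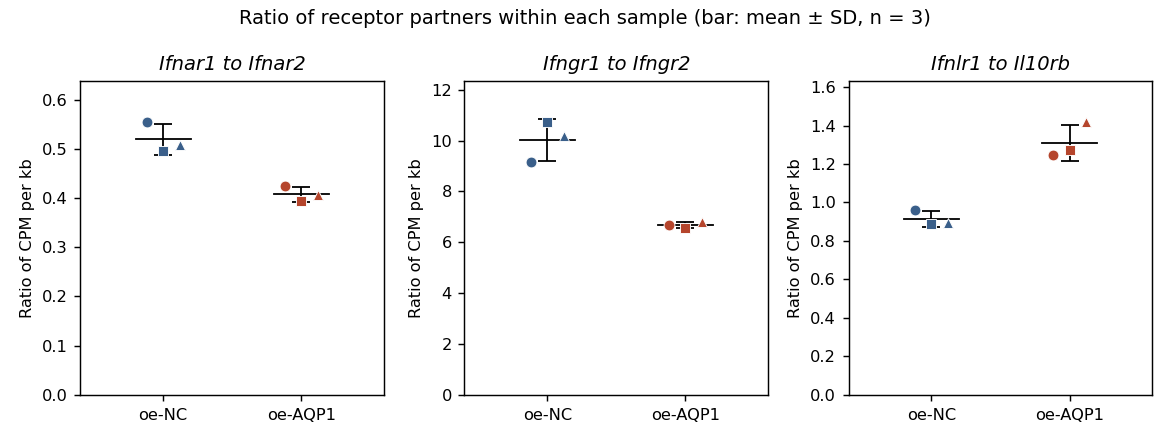
Ratio of the levels per kb of receptor partners within each sample (vertical axes from 0), with circles, squares and triangles for samples 1 to 3 and bars for mean ± SD. Ifngr1 to Ifngr2 falls from 10.02 to 6.68, Ifnar1 to Ifnar2 from 0.519 to 0.408, and Ifnlr1 to Il10rb rises from 0.913 to 1.31.

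Of the receptor genes 4 lie side by side on the plus strand of chromosome 16 (GRCm39): Ifnar2 (ENSMUSG00000022971) at chr16:91169618-91202723, Il10rb (ENSMUSG00000022969) at chr16:91203012-91224600, Ifnar1 (ENSMUSG00000022967) at chr16:91281942-91305789 and Ifngr2 (ENSMUSG00000022965) at chr16:91343906-91362512. They span 192.9 kb, with 288 bases between Ifnar2 and Il10rb. Ifngr1 (ENSMUSG00000020009) lies at chr10:19467697-19485977 and Ifnlr1 (ENSMUSG00000062157) at chr4:135413514-135435492, both on the plus strand. Along the cluster, 2 genes rose and the 2 between them were not called.

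Within 500 kb of these genes, 82 genes are annotated and 26 were tested, 22 of them not receptor genes. Of the 22, 2 were higher, 4 lower and 16 not called, with a median log2FC of 0.00. Over all genes tested 16.0% were higher and 16.6% lower, so the calls named here are a description. Tmem50b, next to Ifngr2, was lower with a log2FC of -0.48 (SE 0.07), Slc5a3 with -0.28, Atp5po with -0.20 and Gart with -0.11. The 2 higher ones, Gm7860 at 0.95 and ENSMUSG00000137196 at 0.84, are a pseudogene and a noncoding gene before Ifngr2 that overlap each other and lie on the strand opposite to Ifngr2, with mean counts of 8.03 to 31.4 per group.

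**Figure D4:**
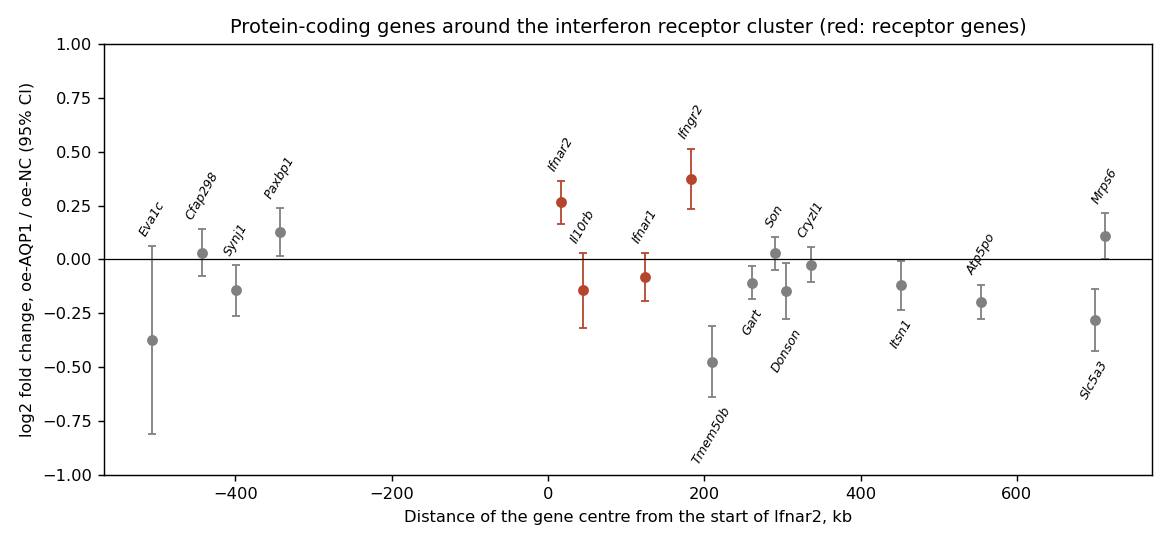
Log2FC with its unadjusted 95% CI for the protein-coding genes tested around the cluster, against the distance of each gene's center from the start of Ifnar2 in kilobases, with receptor genes in red. Ifnar2 and Ifngr2 lie above 0, Ifnar1 and Il10rb have intervals that include 0, and Tmem50b at -0.48 is the lowest.

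RefSeq windows were given for 7 of the 8 genes, Il10rb being the exception. Among the receptor genes 3 matches were found, of which the 2 that lie wholly before the start site are shown with 10 bases on each side, with the matches in capitals. The motif TTCNNNGAA of gamma-activated sites began at -214 of Ifnar2, and the κB motif, on the reverse strand, at -74 of Ifngr2.
Ifnar2: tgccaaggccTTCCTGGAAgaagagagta
Ifngr2: gaacaccgggGAAAGTCCCcacgggccgg
TTCNNNGAA was held by 8.3% of all windows and by 2 of the 7. The other was Ifnar1, where it begins at -5 and crosses the RefSeq start site. That start site lies inside the GENCODE gene whose position is given above. No match to any of the 5 motifs was found in the windows of Ifngr1 and Ifnlr1, which says only that these letters are not there.

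Genes of the pathway that induces the ligands differed in part between the groups. Whether these differences came before or after those of the ligands was not tested. Of 20 genes of the interferon induction pathway 19 were tested: 11 were higher, 7 of them DEGs, none was lower and 8 did not pass, with a median log2FC of 0.27. Over all genes tested 16.0% were higher, 16.6% lower and 4.39% DEGs higher in oe-AQP1, with a median of 0.0023. These shares also stand beside the counts of the lists that follow. The 4 induction genes with the largest changes were Irf5, an interferon regulatory factor (log2FC 4.32), Tlr3, the endosomal sensor of double-stranded RNA (2.48), Dhx58, the RNA sensor LGP2 (2.44), and Irf7, the factor that drives the Ifna genes (1.97). Irf5 rose from 8, 7.21 and 7 counts in oe-NC to 141, 180 and 172 in oe-AQP1.

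The sensors Ifih1 (MDA5, 1.96) and Rigi (RIG-I, 1.41) and the factor Irf1 (1.43) also rose. So did Ikbke (0.92) and Tbk1 (0.48), kinases of the pathway, the adaptor gene Traf3 (0.27) and Sting1 (0.21), the adaptor for cytosolic DNA. Irf3, the factor that acts first, had a log2FC of -0.08 (FDR = 0.386 by limma-voom), and the adaptor genes Mavs (0.06) and Ticam1 (0.06) did not pass either. Nor did the Ifnb1 promoter factors Nfkb1, Rela, Atf2 and Jun or Hmga1. Cgas, the sensor of cytosolic DNA, was not tested, with 10, 10 and 9.84 counts in oe-AQP1 and 2, 0 and 1.77 in oe-NC. Several of these statements rest on oe-NC sample 1. Without it 16 genes of the list were higher in place of 11, the added ones being Rela (log2FC 0.31), Jun (0.32), Hmga1 (0.25), Mavs (0.10) and Cgas, which then passed the filter.

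Among 5 transducers of the receptors, Stat2 (log2FC 1.97) and Irf9 (0.68) were higher. Stat2 reached 447 ± 7.79 CPM in oe-AQP1 from 115 ± 3.45 CPM in oe-NC (SD, n = 3). The receptor kinases did not follow: Jak1 was lower by limma-voom (-0.11, FDR = 0.0457), a call lost with edgeR, DESeq2 and other alternatives, and Jak2 (0.12) and Tyk2 (-0.11) did not pass. The median of the 5 was 0.12.

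Of 7 genes that restrain the receptors 4 were higher and 1 lower, with a median of 0.21. Socs1, an inhibitor of the JAK kinases, rose with a log2FC of 1.75, from 92, 48 and 61 counts to 230, 222 and 240. Usp18, which binds IFNAR2 and dampens its signaling, rose with 1.74, and Ptpn2 (0.22) and Pias1 (0.21) by less. The phosphatase gene Ptpn6 was lower (-0.26, FDR = 0.0401 by limma-voom), a call lost with DESeq2 and in other alternatives. Socs3 (-0.19) and Ptpn11 (-0.10) did not pass. Without oe-NC sample 1, Ptpn11 was called lower as well (-0.07, FDR = 0.0477 by limma-voom).

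All 15 listed targets of type I and III interferon were tested and were DEGs higher in oe-AQP1, with a median log2FC of 2.74. Mx1, an antiviral GTPase, had the largest (5.91), followed by the chemokine gene Cxcl10 (5.19), Ifit3b (5.18) and Ifit3 (4.85), near-identical members of the antiviral IFIT family whose reads may have been split between them. The lowest was Oas2 (1.11). These targets were read in control cells too, from 6.71 CPM for Ifit3b to 527 CPM for Bst2.

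Targets that lean to interferon-γ showed no common direction. Of 9 listed 5 were tested: the chemokine gene Cxcl9 was higher (log2FC 3.13), as was Cd74 (0.28), the invariant chain of class II antigen presentation, while Nos2, the inducible nitric oxide synthase, was lower (-1.44). H2-Ab1 (0.09) and H2-DMa (-0.01) did not pass, and the median was 0.09. Ciita, the master regulator of class II genes, H2-Aa, H2-Eb1 and Ido1 were not tested, with 0 to 14 counts per sample.

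Of 6 further class II cytokine receptor genes, relatives of the interferon receptors, 3 were tested. Il22ra1, which pairs with Il10rb to bind interleukin-22, had 62, 61 and 66 counts in oe-AQP1 and 13, 15 and 14 in oe-NC. The groups were far apart, with a log2FC of 2.06 (SE 0.22, FDR = 6.19e-05 by limma-voom), a larger change than that of any interferon receptor gene. F3, the tissue factor gene, was lower (-0.21, FDR = 0.0428 by limma-voom), a call that depended on the settings, and Il20rb (-0.36, SE 0.31) did not pass. Il10ra and Il22ra2 had 0 counts, as had the ligand gene Il22, and Il10 had 1 count in oe-NC sample 3.

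**Figure D5:**
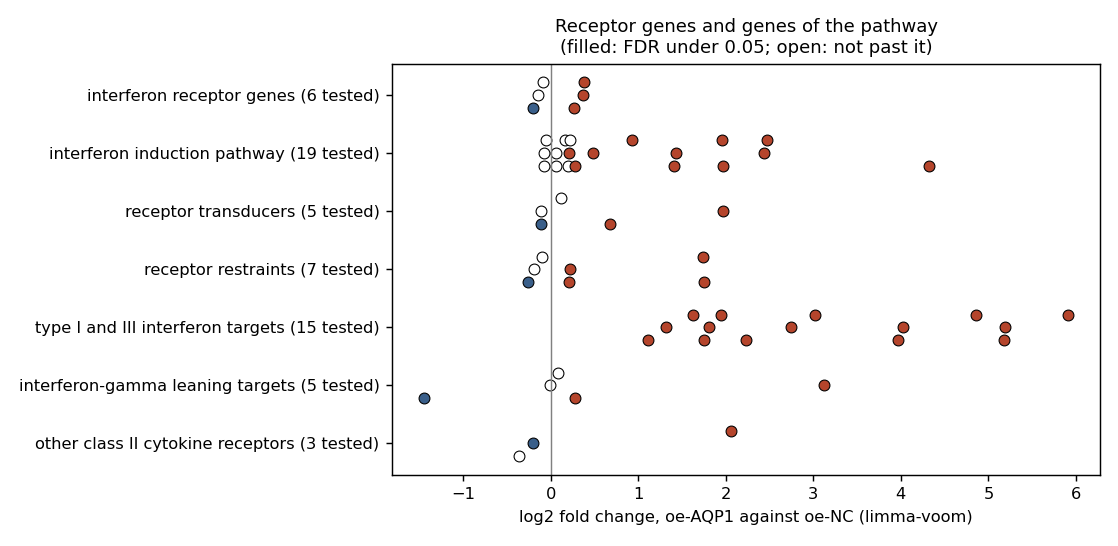
Log2FC (horizontal axis) of each tested gene of the receptor set and 6 lists of the pathway, with filled circles for genes at FDR under 0.05 (red higher, blue lower in oe-AQP1) and open circles for the rest. The 6 receptor genes lie between -0.21 and 0.38, the 15 targets of type I and III interferon between 1.11 and 5.91.

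Genes whose profile over the 6 samples was most like that of a member were found by the root mean square difference of log2 CPM, each centered on its mean. For Ifnb1 these were Mpeg1 (0.128), Ly6a (0.133) and Rsad2 (0.139), with log2FC of 4.49, 4.10 and 4.02. For Ifnar2 they were Ift22 (0.0113), Fmn1 (0.0155) and Mdm4 (0.0187), and for Ifngr1 Suclg2 (0.0170), Mtmr10 (0.0190) and Thyn1 (0.0200). Ifngr2 was most like Zbtb2 (0.0237), Mvp (0.0259) and F730043M19Rik (0.0274), and Ifnlr1 most like Ptcd1 (0.0145), Tnip1 (0.0175) and Zfp710 (0.0258). For this measure 0.5 CPM was added before taking log2, which is above the oe-NC mean of Ifnb1 (0.239 CPM). That narrows the difference of Ifnb1 between the groups, and the genes named for it had a smaller log2FC than its 5.72. The measure is a description over 6 samples, and the genes compared share the scaling of these libraries.

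Immune cells that make or sense interferon were followed by their markers, some of which were at or near 0 while other macrophage markers were well read. Of 8 macrophage markers, Adgre1 had 0 counts in all samples, Ptprc, the marker of all leukocytes, had 0 to 3 counts, and the summed level was 59.1 to 62.3 CPM in oe-AQP1 and 69.3 to 71.3 CPM in oe-NC. The markers Cd68 (33.8 ± 1.48 CPM in oe-AQP1 and 30.6 ± 0.909 in oe-NC, SD, n = 3) and Cd14 (11.5 ± 0.414 and 12.9 ± 0.740) were read in every sample and did not pass the test, and Csf1r and Lyz2 were lower in oe-AQP1. Of 6 markers of plasmacytoid dendritic cells, specialized producers of type I interferon, Siglech had 0 counts in all samples. Their sum was 8.55 to 9.60 CPM in oe-AQP1 against 5.40 to 6.47 CPM in oe-NC. Spib alone was called (log2FC 1.20), with means of 5.30 CPM in oe-AQP1 and 2.32 CPM in oe-NC. Cox6a2 (3.29 and 3.01 CPM) did not pass the test, and the others were not tested. The 7 markers of T and NK cells, which make interferon-γ, summed to at most 0.101 CPM in oe-AQP1 and 0.274 CPM in oe-NC, and none passed the low-count filter. The part of Spib and of the other markers that differed in the results was not tested.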

How the data were processed

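The authors sequenced paired-end TruSeq libraries of total RNA from 6 samples. They deposited expected counts per gene, not scaled between samples. Per the labels, the submitters' processing notes name fastp, HISAT2, featureCounts and Subread and the build GRCm38 (mm10), while the study's methods name GRCm39. The versions are not given in the sources used here, nor is the step that made some counts fractional. The deposited table gives no coordinates, and positions and exon lengths are those of GENCODE M39 on GRCm39, in which 78168 of the 78298 genes were found. Group means and annotation columns were not used.

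Expected counts were rounded, filtered with edgeR's filterByExpr (edgeR 4.0.16) and scaled by TMM (factors 0.993 to 1.01), and the 15522 genes kept were fitted with limma-voom (limma 3.58.1, R 4.3.3) with group as the only term. Before counting its DEGs the study removed genes of the interferon response and of viral defense, as a guard against artifacts of transfection, and kept inflammatory mediators. No gene was removed here on that ground. All p-values were adjusted over these genes. The fits were also tried on simulated counts, with changes larger than those of the receptor genes. The changed genes were well counted and no simulated sample deviated from its group. That trial does not cover the ligands in oe-NC, the small receptor differences or oe-NC sample 1. At 18385714 to 21920899 counts per sample, 1 CPM is about 20 counts, and intervals on counts cover counting error only. Lower bounds used 3 counts per library, and profile likeness used 0.5 CPM as pseudocount. Samples were grouped by their genotype label.

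The members, the lists and the tests were chosen with earlier results of these data known. Named from each list were the 4 largest changes called, plus genes needed to state a 0 or a test not passed. Further list genes were named after their values were seen. A list gene is not reported here and was left out of its list's counts. Results were recomputed with DESeq2 1.42.0, edgeR's quasi-likelihood test, sample quality weights, other scalings and filters, unrounded counts, a replicate block, another gene length and leaving out each sample in turn.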

Additional observations from a re-analysis of the deposited data

How the results depend on the processing

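No member changed its direction or its side of the FDR threshold in any alternative that tested it. The log2FC of Ifnb1 was 5.47 to 5.95 when each sample was left out. Ifnb1 and Ifna4 were not tested when every sample needed 10 counts. The fitted log2FC of Ifna4, at 0 in oe-NC, was 5.65 with limma-voom, 7.71 with edgeR and 7.11 with DESeq2, so its size depends on the method. Of all genes, 5050 were called and 812 were DEGs, against 482 DEGs with at least 10 counts in every sample and 1136 with no filter. Samples with the same number did not deviate together (r = -0.000111, 0.0153 and -0.0527), so the replicate block is no pairing. With it 786 genes were DEGs and no member changed its call. In the lists, single lower calls were lost in 3 cases. That of the transducers (Jak1) was lost (0 lower) with edgeR, DESeq2, library-size scaling, 10 counts per sample and the replicate block. That of the restraints (Ptpn6) was lost (0 lower) with DESeq2, library-size scaling, no filter and the replicate block, and that of the other class II receptors (F3) with DESeq2, library-size scaling, no filter, 10 counts per sample and the replicate block. Leaving out a sample gave 0 to 1 lower calls for the transducers and the class II receptors and 0 to 2 for the restraints, the 2 without oe-NC sample 1. The single lower call among gamma-leaning targets (Nos2) stood in each alternative. Of the induction genes, 11 higher calls became 15 with sample quality weights, 13 with the replicate block and 16 without oe-NC sample 1. With no filter 2 restraints (against 4) and 1 of the other ligands were higher, and leaving out a sample gave 3 to 4 restraints. Of the tubule markers 1 was higher, in place of 0, with sample quality weights, with the replicate block and without oe-NC sample 1, and with no filter 1 macrophage marker was. By longest transcript Ifnar1 took place 4, Ifngr2 place 5, Il10rb place 6 and Ifnlr1 place 7 in oe-AQP1. The cause of these changes was not tested. The depth limits what can be said of the other ligands, where 0 counts allow up to 0.164 CPM.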
